A study of Mus musculus with 6 samples.

Results

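The 40 genes described here carry the T cell receptor (TCR) signal from the CD3 chains at the cell surface to the transcription factors NFAT and NF-kB in the nucleus. They were taken as a list of gene names, and the rule for membership uses no measured value. All 40 were found by symbol among the 53379 gene identifiers of the count data and all 40 passed the expression filter, which left 14555 genes in total. The cells were splenic T follicular helper (Tfh) cells, the CD4+ T cells that help B cells in germinal centers, and each of 6 mice gave 1 RNA-seq library. *Prdm1*-CKO mice (*Prdm1* fl/fl CD11c-Cre+, 3 mice) lack Blimp-1, the protein made from *Prdm1*, in dendritic cells that express CD11c at a high level. Littermate control (CTL, 3 mice) is a label for mice that were either *Prdm1* fl/fl without Cre or *Prdm1* +/+ with CD11c-Cre, and which CTL mouse had which genotype is not in the labels. All mice were females of 6 to 8 weeks that had received NP-CGG in complete Freund's adjuvant, and spleens were taken on day 7. Cells were sorted as live TCRb+ CD4+ CXCR5+ PD1+ cells. That gate holds no FOXP3 stain, so follicular regulatory T cells were part of the sort.

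The TCR itself has no enzyme. When it binds peptide and MHC, the kinase Lck, brought by the CD4 coreceptor, phosphorylates the CD3 and zeta chains, and ZAP-70 binds there and phosphorylates the adaptors LAT and SLP-76. Enzymes recruited to these adaptors open separate routes: the Ras and ERK cascade, the PKC-theta, BCL10 and MALT1 route to NF-kB, and the calcium and calcineurin route to NFAT. In Tfh cells this signal comes from cognate contact with antigen-presenting cells, first dendritic cells and later B cells. The list divides into 8 steps, from 2 to 8 genes each. Of its genes, 12 are mostly restricted to the T lineage and 28 are shared with other leukocytes.

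Library totals ran from 7147601 to 16973392 counts, and the medians were 8623180 for CTL and 14885913 for *Prdm1*-CKO. The 40 genes took from 1.35% to 1.60% of the counts of a library, and the lowest count of any of them in a mouse was 97, far over the floor of 3 counts that stands for detection. CTL replicate 2 stood apart from the other 5 mice. It lay at 135 on the first principal component against -29.1 to -24, it had 16650 genes detected against 18480 to 21501, and mitochondrial genes took 5.83% of its counts against 2.11% to 4.41%. Leaving it out changed the sign of the log2 fold change, described below, for 11 of the 40 genes, and leaving out CTL replicate 3 did so for 10. The Tfh and CD4 T cell markers summed to 3463 to 4436 CPM (each gene's counts relative to the library total, after TMM scaling) in CTL and 3582 to 3763 CPM in *Prdm1*-CKO mice, and none of these 10 genes was at 0 in a mouse. Markers of other cells were also present. The 10 macrophage markers summed to 2255 to 4868 CPM in CTL and 3948 to 4751 CPM in *Prdm1*-CKO mice, with *Marco* at 0 in some mice, and most of it was *Lyz2*, at 1763 to 3476 CPM over the 6 mice. *Prdm1* RNA in the sorted Tfh cells was 28.9, 30.0 and 27.5 CPM in CTL and 30.2, 30.8 and 30.9 CPM in *Prdm1*-CKO mice. Since CD11c-Cre deletes the gene in dendritic cells and the sort took T cells, this level does not check the deletion.

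*Cd3e*, *Cd3d* and *Cd3g*, which encode the epsilon, delta and gamma chains of CD3, lie side by side within 40056 bases of chromosome 9 (chr9:44969572-45009627, GRCm38), and *Cd3g* and *Cd3d* are read in opposite directions with 1354 bases between them. *Lat* (chr7:126363824-126369570) and *Lcp2* (chr11:34046920-34092295), the gene of SLP-76, encode the adaptors on which the signal is assembled. The RefSeq promoters (GRCm38.p6, from 250 bases before to 50 after the start of the gene) are shown for these 5, because the CD3 genes are expressed together in all 6 mice and the adaptors are 2 of the 4 genes whose groups did not overlap. Capitals mark the ETS core GGAAG or the RUNX core TGTGGT on either strand, so that CTTCC and ACCACA are the same motifs read from the other strand. Matches to the ETS core and to the RUNX core cannot overlap each other.

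Cd3e, chr9:45009562-45009861, minus strand: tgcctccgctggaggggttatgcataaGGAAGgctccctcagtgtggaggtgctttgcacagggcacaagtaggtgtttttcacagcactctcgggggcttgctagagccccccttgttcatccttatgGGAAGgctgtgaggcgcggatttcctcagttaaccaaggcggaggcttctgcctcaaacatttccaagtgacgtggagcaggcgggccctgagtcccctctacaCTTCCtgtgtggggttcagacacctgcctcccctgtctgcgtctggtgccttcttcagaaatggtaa
Cd3d, chr9:44981536-44981835, plus strand: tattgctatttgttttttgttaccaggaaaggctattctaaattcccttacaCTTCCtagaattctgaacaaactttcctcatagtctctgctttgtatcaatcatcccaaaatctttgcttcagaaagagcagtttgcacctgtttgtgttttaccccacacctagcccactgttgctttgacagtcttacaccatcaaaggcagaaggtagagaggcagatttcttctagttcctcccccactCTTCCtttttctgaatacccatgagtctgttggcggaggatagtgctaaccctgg
Cd3g, chr9:44980382-44980681, minus strand: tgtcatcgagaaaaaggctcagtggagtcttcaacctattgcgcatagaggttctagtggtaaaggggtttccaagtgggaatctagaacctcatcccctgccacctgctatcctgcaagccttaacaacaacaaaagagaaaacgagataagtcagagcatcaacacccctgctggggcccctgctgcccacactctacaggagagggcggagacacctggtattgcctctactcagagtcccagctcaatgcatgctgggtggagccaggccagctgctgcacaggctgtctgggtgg
Lat, chr7:126369519-126369818, minus strand: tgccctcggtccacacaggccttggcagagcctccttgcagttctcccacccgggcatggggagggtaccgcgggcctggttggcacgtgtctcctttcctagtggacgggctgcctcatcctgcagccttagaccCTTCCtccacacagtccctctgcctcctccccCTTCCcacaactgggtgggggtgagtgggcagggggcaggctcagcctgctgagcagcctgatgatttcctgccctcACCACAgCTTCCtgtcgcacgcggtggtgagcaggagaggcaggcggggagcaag
Lcp2, chr11:34046678-34046977, plus strand: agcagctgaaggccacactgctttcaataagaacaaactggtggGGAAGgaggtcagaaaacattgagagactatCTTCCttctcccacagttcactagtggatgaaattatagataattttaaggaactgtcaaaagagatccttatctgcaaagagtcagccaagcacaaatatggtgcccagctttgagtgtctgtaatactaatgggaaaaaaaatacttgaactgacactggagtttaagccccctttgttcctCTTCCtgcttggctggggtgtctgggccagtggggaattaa

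The ETS core stood 3 times in the promoters of *Cd3e*, *Lat* and *Lcp2*, 2 times in that of *Cd3d* and 0 times in that of *Cd3g*, and the RUNX core stood 1 time in that of *Lat* alone among these 5. A promoter was matched for 32 of the 40 genes. The ETS core stood in 23 of these 32 (71.9%), where 71.4% of all 32851 promoters in the table hold it, and the RUNX core in 4 of 32 (12.5%), where 16.8% of all promoters do. The shares of the list count genes, with up to 4 promoters listed for a gene, and those of all promoters count single promoters. On these unlike units the shares are close, and a match is only a run of letters.

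In CTL Tfh cells the levels of the 40 genes differed widely. Levels are compared between genes per kilobase of summed exons (CPM per kb). *Lck*, the kinase that starts the cascade, had the highest level of the list, 537 ± 65.7 CPM per kb (SD, n = 3). The lowest levels were those of *Grap2*, which encodes the adaptor Gads that holds SLP-76 to LAT, at 2.51 ± 0.393 CPM per kb, of *Ppp3ca*, a catalytic subunit of calcineurin, at 2.89 ± 1.44 CPM per kb, and of *Itpr1*, a channel that releases calcium from stores, at 3.41 ± 0.912 CPM per kb (SD, n = 3 each). With the longest coding transcript as the length, a choice made after seeing the data, *Lck* was still the highest, at 720 CPM per kb, and *Grap2*, *Ppp3ca* and *Itpr1* were still the lowest, at 2.86, 6.06 and 6.32 CPM per kb. The order between these ends depended on the length. Per kb of summed exons, *Lck* was followed by *Cd3d*, *Cd4*, the adaptor *Lat* at 236 CPM per kb and *Dgka*, a brake of the pathway, at 203 CPM per kb, ahead of *Zap70* at 183 CPM per kb. Per kb of the longest coding transcript, *Cd3g* at 579, *Lat* at 529, *Ptprc* at 523 and *Cd3e* at 453 CPM per kb came next after *Lck*. By step, levels per kb of summed exons ran from 87.4 to 291 CPM per kb in the TCR complex, 87.7 to 247 in the coreceptors, 60.0 to 537 in the proximal kinases, 2.51 to 236 in the adaptor assembly and 11.0 to 203 in the brakes. They ran from 7.77 to 49.9 CPM per kb in the Ras and ERK step, 6.88 to 50.9 in the PKC-theta and NF-kB step and 2.89 to 37.3 in the calcium and NFAT step.

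**Figure D1:**
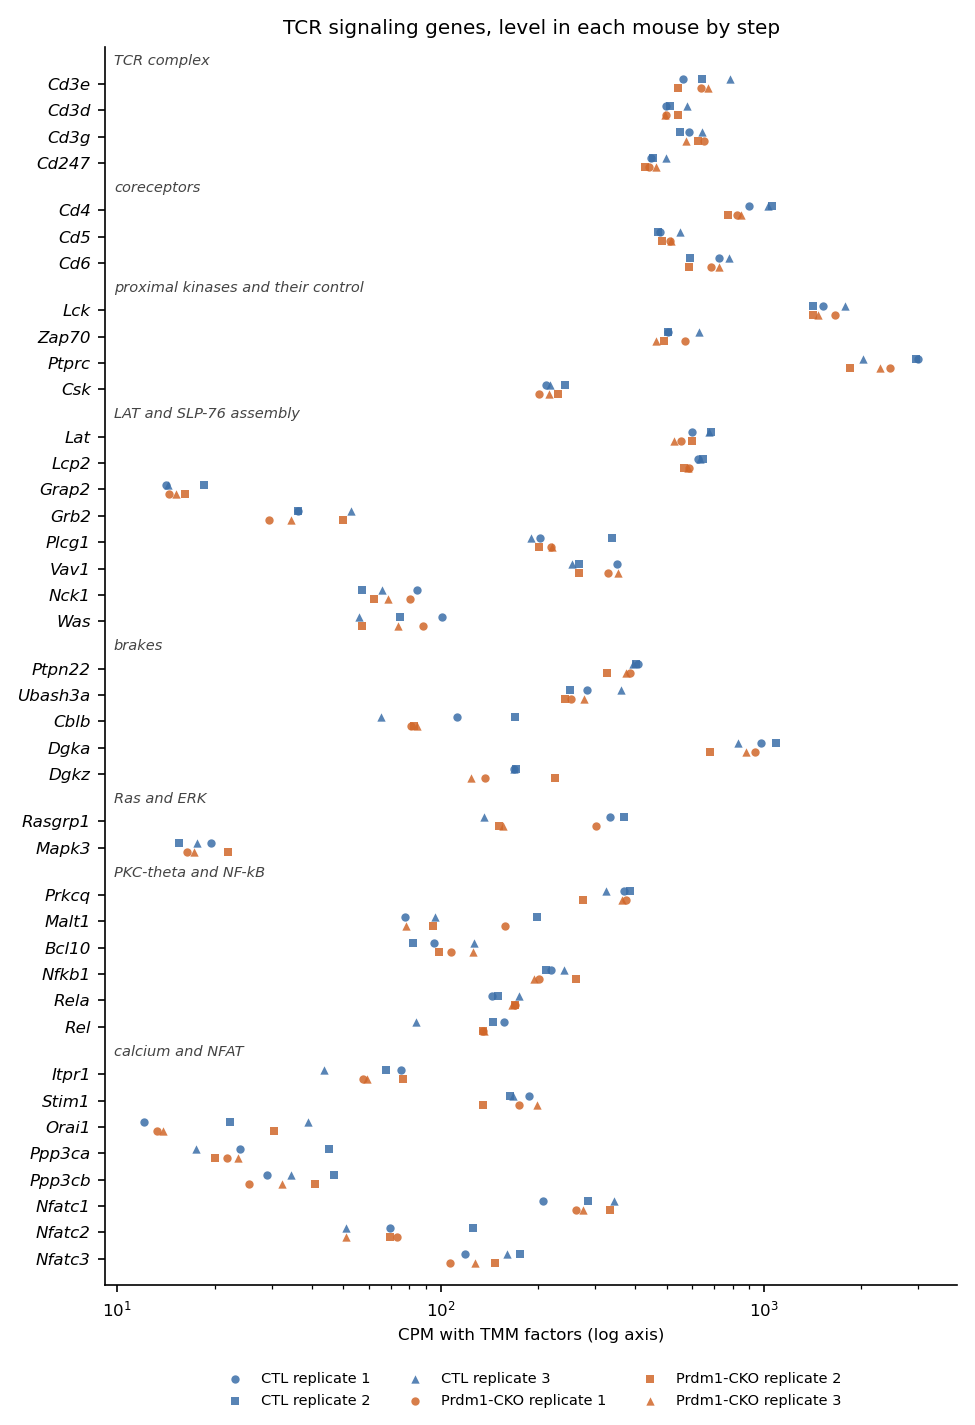
Level of each of the 40 TCR signaling genes in each mouse, in CPM with TMM factors on a log axis, by signaling step. Blue symbols are CTL and orange symbols *Prdm1*-CKO mice; circles, squares and triangles are replicates 1, 2 and 3. For most genes the ranges of both groups overlap. Values run from *Orai1* at 12.1 CPM to *Ptprc* at 2999 CPM.

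The comparison of *Prdm1*-CKO with CTL mice asks whether Tfh cells from mice whose dendritic cells lack Blimp-1 hold other amounts of these transcripts. No gene of the list passed the test, and most lay slightly below 0. In edgeR's quasi-likelihood test of 3 against 3 mice, with Benjamini-Hochberg adjustment over 14555 genes, 0 of the 40 rose and 0 fell at an adjusted p under 0.05, as was true of all genes tested (0% higher and 0% lower). DESeq2 and voom also gave 0 and 0 among the 40. At an unadjusted p under 0.05, 0 were higher and 1 was lower, *Cd4* (2.5% of the list, against 1.42% of all genes lower and 0.928% higher). The log2 fold changes ran from -0.49 for *Cblb* to 0.13 for *Bcl10*, with a median of -0.09, where the median over all genes was 0.01. Of the 40, 30 (75%) lay below 0, where 48.9% of all genes did. This count was 28 without CTL replicate 2, and it was 25, the lowest with 1 mouse left out, when either CTL replicate 3 or *Prdm1*-CKO replicate 1 was dropped. Marker lists with a median log2 fold change above 0 included B cells (0.83, 10 of 10 above 0), plasma cells (0.48, 8 of 8) and macrophages (0.43, 9 of 9 tested). The medians were below 0 for CD8 T and NK cells (-0.50), regulatory T cells (-0.14) and Tfh and CD4 T cells (-0.03). The part of these cells in the count was not tested. Every *Prdm1*-CKO mouse lay below every CTL mouse in 4 genes, *Cd4*, *Lat*, *Lcp2* and *Ptpn22* (10%, against 3.86% of all genes), and above in 0 (against 4.56% of all genes).

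The data place bounds on the size of most of these differences. The median standard error of the log2 fold change was 0.18 for the 40 genes and 0.33 over all genes. The 95% interval lay within 0.5 on the log2 scale, in either direction, for 16 of the 40 genes and within 1 for 34, and it held 0 for 39. With fewer cells of a type in the sort, or less RNA of a gene per cell, a bulk library shows the same lower value, and these cannot be told apart here.

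**Figure D2:**
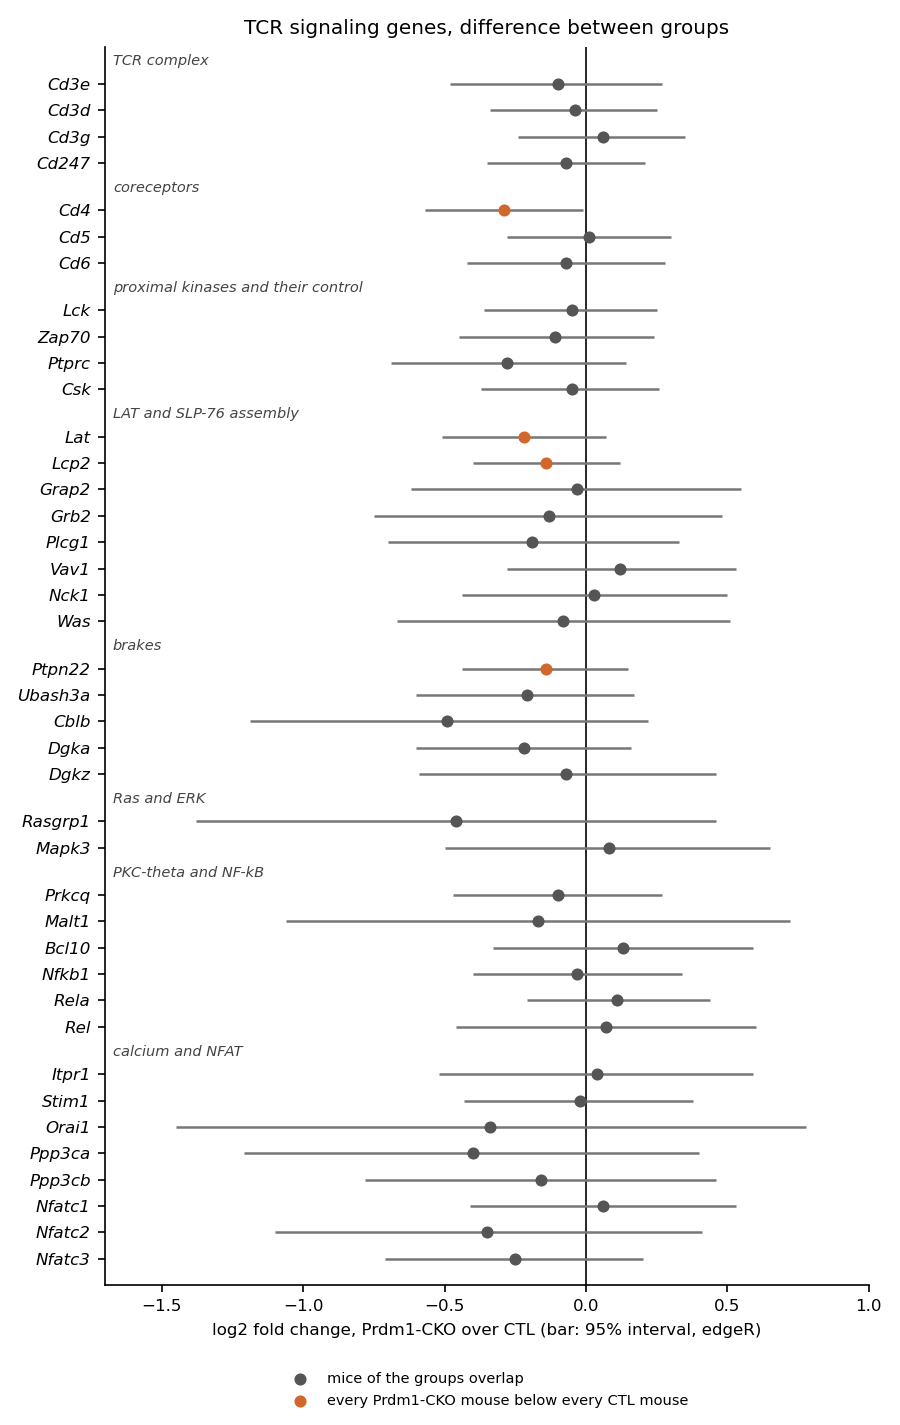
Log2 fold change of each gene, *Prdm1*-CKO over CTL, from edgeR (point) with its 95% interval (bar), by signaling step, 3 mice per group. Orange points mark the 4 genes in which every *Prdm1*-CKO mouse lay below every CTL mouse; the interval leaves out 0 for *Cd4* alone, from -0.57 to -0.01.

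The chains of the TCR complex overlapped between the groups. *Cd3e* was at 561, 642 and 786 CPM in CTL and 640, 542 and 671 CPM in *Prdm1*-CKO mice. *Cd3d* was at 496, 511 and 577 CPM in CTL and 499, 543 and 494 CPM in *Prdm1*-CKO mice, and *Cd3g* at 584, 549 and 643 CPM against 651, 623 and 572 CPM. The groups overlapped in all 3 genes, and the log2 fold changes were -0.10 (SE 0.16), -0.04 (SE 0.13) and 0.06 (SE 0.13). The fourth gene, *Cd247*, encodes the zeta chain, which carries the most phosphorylation motifs of the complex. It was at 448, 454 and 496 CPM against 440, 429 and 464 CPM, with a log2 fold change of -0.07 (SE 0.12). This gene is uncertain, because 60.3% of its exon bases overlap other genes, among them *Pou2f1* on the opposite strand, and the sources used here do not say whether counting used the strand. The median over the 4 genes was -0.06, and it was 0.04 without CTL replicate 3. For *Cd3d* and *Cd3g* the 95% intervals, -0.34 to 0.25 and -0.24 to 0.35, leave out a change of 0.5 on the log2 scale. The constant region of the TCR alpha chain, *Trac*, a Tfh and CD4 T cell marker, was at 973 ± 73.7 CPM in CTL and 959 ± 31.9 CPM in *Prdm1*-CKO mice (SD, n = 3 each). The order of the CD3 genes among themselves depended on the length used. *Cd3d* exceeded *Cd3e* and *Cd3g* in 6 of 6 mice per kb of summed exons and in 0 of 6 per kb of the longest coding transcript.

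*Cd4* was the gene with the smallest p of the list. It encodes the coreceptor that binds MHC class II and brings Lck to the TCR (chr6:124864692-124888221, GRCm38). *Cd4* was at 896, 1061 and 1031 CPM in CTL and at 823, 774 and 847 CPM in *Prdm1*-CKO mice. All 3 *Prdm1*-CKO mice lay below all 3 CTL mice, a log2 fold change of -0.29 (SE 0.12), or a mean of 815 ± 37.4 CPM against 996 ± 88.1 CPM (SD, n = 3 each). The unadjusted p was 0.0465 and the adjusted p was 0.996 from edgeR. Without CTL replicate 2 the log2 fold change was -0.25 (unadjusted p = 0.0951 from edgeR), and over all alternatives the unadjusted p ran from 0.0272 to 0.131. Macrophages and dendritic cells can also express *Cd4*. The gate required TCRb, yet RNA of macrophage and dendritic cell markers was present in the libraries. The macrophage markers, given above, had a median log2 fold change of 0.43, with 9 of the 9 tested above 0, and their part in the *Cd4* level was not tested. The CD8 T and NK cell markers, which should be scarce in a CD4+ sort, summed to 258 to 353 CPM in CTL and 212 to 263 CPM in *Prdm1*-CKO mice, with a median log2 fold change of -0.50 and 1 of 8 above 0. Of these, *Cd8a* (-2.02) and *Gzma* (-1.14) were lower at an unadjusted p under 0.05, and none passed adjustment. The other CD8 chain, *Cd8b1*, went the other way, from a mean of 11.5 CPM in CTL to 15.5 CPM in *Prdm1*-CKO mice with groups that did not overlap (0.44, SE 0.28). The part of these cells in the *Cd4* level was not tested either.

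*Cd5* and *Cd6*, surface receptors that sit near the TCR and dampen its signal, had smaller log2 fold changes than *Cd4*, and the difference between these genes was not tested. *Cd5* was at 477, 470 and 550 CPM in CTL and 511, 482 and 515 CPM in *Prdm1*-CKO mice, and *Cd6* at 727, 592 and 778 CPM against 686, 588 and 726 CPM. The mice of the groups overlapped in both genes, and the log2 fold changes were 0.01 (SE 0.13) and -0.07 (SE 0.15). The median of these 3 coreceptor genes was -0.07, with values from -0.19 without CTL replicate 2 to 0.02 when either CTL replicate 3 or *Prdm1*-CKO replicate 2 was dropped. *Cd6* itself was at -0.19 without CTL replicate 2.

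Among the proximal kinases and the enzymes that set their activity, all 4 log2 fold changes lay below 0 and none passed the test. When CTL replicate 3 was dropped, *Lck* was at 0.06 and *Zap70* at 0.02, and the median of the step went from -0.08 to -0.02. *Lck* was at 1518, 1413 and 1786 CPM in CTL and 1659, 1414 and 1472 CPM in *Prdm1*-CKO mice (log2 fold change -0.05, SE 0.13). *Zap70*, the kinase that binds the phosphorylated chains, was at 505, 505 and 630 CPM against 568, 491 and 464 CPM (-0.11, SE 0.15). *Lck* exceeded *Zap70* by 2.86 to 3.24 times per kb in every mouse, a ratio that differed little across the 6 mice. *Csk*, which phosphorylates the inhibitory tyrosine of Lck, had a log2 fold change of -0.05 (SE 0.14), and of 0.00 without CTL replicate 2. *Ptprc*, which encodes CD45, the phosphatase that removes that phosphate, was at 2999, 2942 and 2018 CPM in CTL and 2447, 1845 and 2281 CPM in *Prdm1*-CKO mice. CTL replicate 3 lay inside the *Prdm1*-CKO range, and the log2 fold change was -0.28 (SE 0.18). It was -0.16 without *Prdm1*-CKO replicate 2. Without CTL replicate 3 it was -0.43, with an unadjusted p of 0.0203 from edgeR. CD45 is found on all leukocytes, macrophages included.

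The adaptors *Lat* and *Lcp2*, whose promoters are printed above, were lower in every *Prdm1*-CKO mouse than in any CTL mouse, by a small margin that did not pass the test. *Lat* was at 598, 685 and 676 CPM in CTL and 554, 597 and 528 CPM in *Prdm1*-CKO mice, so the highest *Prdm1*-CKO mouse was just under the lowest CTL mouse. Its log2 fold change was -0.22 (SE 0.13, 95% interval -0.51 to 0.07, adjusted p = 0.996 from edgeR). *Lcp2* was at 627, 646 and 633 CPM against 586, 565 and 580 CPM, a log2 fold change of -0.14 (SE 0.11, 95% interval -0.40 to 0.12). *Lcp2* was among the genes with the least spread within groups, 636 ± 9.63 CPM in CTL and 577 ± 10.9 CPM in *Prdm1*-CKO mice (SD, n = 3 each). *Lat* exceeded *Lcp2* by 1.47 to 1.72 times per kb in every mouse, and this ratio overlapped between the groups.

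The other 6 genes of the assembly step had groups that overlapped. *Plcg1* encodes phospholipase C-gamma 1, which makes the second messengers for the calcium and PKC routes. It was at 203, 338 and 190 CPM in CTL and 219, 202 and 221 CPM in *Prdm1*-CKO mice. CTL replicate 2 alone was high, and the log2 fold change of -0.19 (SE 0.23) became 0.11 without it. *Vav1*, an exchange factor for Rac, had a log2 fold change of 0.12 (SE 0.18), which was 0.27 without CTL replicate 1 0.06 for CTL replicate 2 and 0.04 when CTL replicate 3 was dropped, and *Nck1*, an adaptor to the actin machinery, one of 0.03 (SE 0.20), or -0.10 without CTL replicate 2. *Was*, the Wiskott-Aldrich protein that starts actin branching, ran from 56.1 to 101 CPM in CTL and from 57.1 to 88.2 CPM in *Prdm1*-CKO mice (-0.08, SE 0.26). *Grb2*, which links LAT to the Ras exchange factor SOS, ran from 36.1 to 52.7 CPM against 29.4 to 50.0 CPM (-0.13, SE 0.27, or -0.24 without CTL replicate 2 and 0.07 when CTL replicate 3 was dropped). *Grap2* ran from 14.1 to 18.5 CPM against 14.5 to 16.2 CPM (-0.03, SE 0.26, or 0.09 without CTL replicate 2). For *Grb2*, 14.1% of the stretches of 25 bases in its exons also stand in other genes, and for *Was* 10.4%, so reads of 25 bases could be split there.

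The brakes of the pathway were the only step besides the proximal kinases with all of its genes below 0, 5 of 5, where 48.9% of all genes lay below 0. The median of the step was -0.21, or -0.13 without CTL replicate 2, and no gene of it passed the test. The count depends on which genes were placed in the step. *Cd5* (0.01), *Cd6* (-0.07) and *Csk* (-0.05), which also restrain the signal, were placed in other steps. *Ptpn22*, a phosphatase that acts on Lck and ZAP-70 (chr3:103859795-103912247, GRCm38), was at 407, 401 and 393 CPM in CTL and 385, 328 and 374 CPM in *Prdm1*-CKO mice. The groups did not overlap, and the log2 fold change was -0.14 (SE 0.13, adjusted p = 0.996 from edgeR), or -0.07 without *Prdm1*-CKO replicate 2. *Dgka* and *Dgkz* encode diacylglycerol kinases, which remove the lipid that activates RasGRP1 and PKC-theta. *Dgka* was at 977, 1092 and 833 CPM against 935, 682 and 881 CPM (-0.22, SE 0.17, or -0.13 without CTL replicate 2 and -0.08 when *Prdm1*-CKO replicate 2 was dropped), and it exceeded *Dgkz* by 3.98 to 9.35 times per kb in every mouse. *Dgkz* was nearly identical in the CTL mice, at 169, 171 and 169 CPM, and spread in the *Prdm1*-CKO mice, at 137, 226 and 124 CPM (-0.07, SE 0.23). Its value was -0.37 when *Prdm1*-CKO replicate 2 was dropped, 0.05 for *Prdm1*-CKO replicate 1 and 0.10 for *Prdm1*-CKO replicate 3, so the count of 5 of 5 did not hold when either of the last 2 mice was dropped. *Ubash3a*, a T cell suppressor of TCR signaling, was at 283, 251 and 360 CPM against 253, 242 and 277 CPM (-0.21, SE 0.17). Without CTL replicate 3, its highest mouse, the value was -0.05, and without CTL replicate 2 it was -0.33.

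*Cblb* encodes the ubiquitin ligase Cbl-b, which sets the threshold for T cell activation without costimulation. It had the largest log2 fold change of the list, -0.49 (SE 0.31, 95% interval -1.19 to 0.22). The CTL mice were at 112, 170 and 65.4 CPM and the *Prdm1*-CKO mice at 80.7, 82.6 and 84.5 CPM. The *Prdm1*-CKO mice lay close together, between the lowest and the middle CTL mouse. It was -0.11 without CTL replicate 2 and -0.76 without CTL replicate 3.

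In the Ras and ERK step, *Rasgrp1*, the exchange factor that reads diacylglycerol and loads Ras in T cells, split the mice without regard to group. It was at 335, 368 and 136 CPM in CTL and 303, 151 and 156 CPM in *Prdm1*-CKO mice. CTL replicates 1 and 2 and *Prdm1*-CKO replicate 1 were high and the other 3 mice were at about the same low level. The log2 fold change was -0.46 (SE 0.40), and it became -0.21 when CTL replicate 2 was left out, -0.78 for CTL replicate 3 and -0.86 for *Prdm1*-CKO replicate 1. With CTL replicate 3 left out, *Rasgrp1*, *Cblb* and *Ptprc* were lower at an unadjusted p under 0.05, as were 3.94% of the 15675 genes then tested (0 of the list and 2.14% of all genes were higher), and the smallest adjusted p of the list was 0.76 from edgeR. *Mapk3*, the kinase ERK1, was low, between 15.5 and 22.0 CPM over the 6 mice, with a log2 fold change of 0.08 (SE 0.25), or -0.01 without CTL replicate 2.

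**Figure D3:**
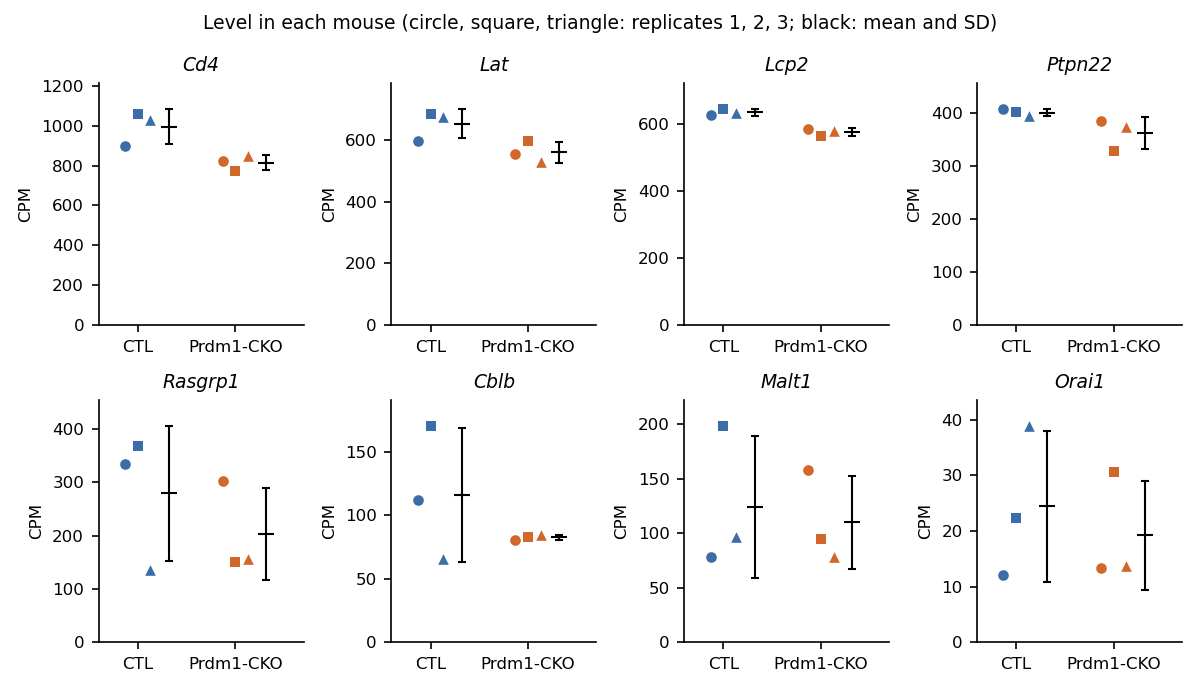
CPM in each mouse for the 4 genes whose groups did not overlap (upper row) and 4 genes with a wide spread between mice (lower row), from 0. Circles, squares and triangles are replicates 1, 2 and 3, and the black mark is the mean with its SD (n = 3). *Cd4*, *Lat*, *Lcp2* and *Ptpn22* are separated by small margins, while *Rasgrp1*, *Cblb*, *Malt1* and *Orai1* vary more within CTL mice than between the groups.

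The genes that lead to NF-kB had the only step median above 0, at 0.02, with 3 of 6 below 0, and it was -0.01 without CTL replicate 1 and -0.06 without CTL replicate 3. *Prkcq*, the PKC-theta kinase of the T cell synapse, was at 368, 386 and 325 CPM in CTL and 373, 275 and 363 CPM in *Prdm1*-CKO mice (log2 fold change -0.10, SE 0.16). BCL10 and MALT1 belong to the scaffold that activates the IkB kinase. *Malt1* was at 77.8, 198 and 96.2 CPM in CTL and 158, 94.8 and 77.9 CPM in *Prdm1*-CKO mice, so 1 mouse of each group was high (-0.17, SE 0.39). Without CTL replicate 2 its log2 fold change was 0.33. *Bcl10* was at 95.6, 82.4 and 127 CPM against 108, 98.5 and 126 CPM, and its log2 fold change was 0.13 (SE 0.20). It was -0.02 without CTL replicate 2 and 0.32 when CTL replicate 3 was dropped. The groups also overlapped for the subunits of NF-kB themselves. *Rela* was at 144, 150 and 175 CPM against 170, 170 and 166 CPM (0.11, SE 0.14), and *Nfkb1* at 220, 212 and 240 CPM against 202, 262 and 195 CPM (-0.03, SE 0.16). *Rel* was at 157, 145 and 84.0 CPM in CTL and 135, 135 and 136 CPM in *Prdm1*-CKO mice (0.07, SE 0.23), so that CTL replicate 3 alone was low. The value was 0.16 without CTL replicate 2 and -0.15 when CTL replicate 3 was dropped. *Rela* exceeded *Rel* per kb in 6 of 6 mice, by 2.24 to 5.05 times in CTL and 2.95 to 3.07 times in *Prdm1*-CKO mice.

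In the calcium and NFAT step, 6 of 8 genes lay below 0 and the median was -0.21, but it was 0.05 without CTL replicate 2. *Stim1*, the sensor of calcium in the endoplasmic reticulum, was at 187, 164 and 167 CPM in CTL and 175, 135 and 199 CPM in *Prdm1*-CKO mice (log2 fold change -0.02, SE 0.18). *Orai1*, the channel that STIM1 opens in the plasma membrane, was at 12.1, 22.3 and 38.8 CPM in CTL and 13.3, 30.6 and 13.8 CPM in *Prdm1*-CKO mice. The highest and lowest mouse were both CTL mice, and with a log2 fold change of -0.34 (SE 0.49, 95% interval -1.45 to 0.78) it had the widest interval of the list, and it was 0.17 without CTL replicate 3. *Itpr1* ran from 43.6 to 75.6 CPM against 57.4 to 76.3 CPM (0.04, SE 0.24). Calcineurin, the phosphatase that frees NFAT to enter the nucleus, has its catalytic subunits from *Ppp3ca* and *Ppp3cb*. *Ppp3ca* was at 24.0, 45.0 and 17.5 CPM against 21.8, 20.0 and 23.6 CPM (-0.40, SE 0.35), and CTL replicate 2 alone was high, with a log2 fold change of 0.06 without it. *Ppp3cb* was at 29.0, 46.9 and 34.5 CPM against 25.5, 41.0 and 32.3 CPM (-0.16, SE 0.27, or 0.04 without CTL replicate 2). Replicate 2 was the highest of *Ppp3cb* in both groups.

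Of the NFAT factors, *Nfatc1*, which TCR signaling induces, was the most abundant per kb, *Nfatc3* the next and *Nfatc2* the lowest, in 6 of 6 mice and by either length. *Nfatc1* was at 207, 285 and 344 CPM in CTL and 262, 335 and 275 CPM in *Prdm1*-CKO mice (log2 fold change 0.06, SE 0.21). *Nfatc2* was at 69.5, 126 and 51.0 CPM against 73.3, 69.7 and 51.0 CPM (-0.35, SE 0.33), with CTL replicate 2 high, and 0.09 without that mouse. *Nfatc3* was at 119, 176 and 160 CPM against 107, 147 and 128 CPM (-0.25, SE 0.20), and the value became -0.41 when CTL replicate 1 was dropped, -0.14 for CTL replicate 2 and -0.13 for *Prdm1*-CKO replicate 1. *Nfatc1* exceeded *Nfatc3* by 2.55 to 3.38 times per kb in CTL and by 3.36 to 3.85 times in *Prdm1*-CKO mice, ranges that overlap by a narrow margin.

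Much of what varied in this pathway varied between mice of 1 group. The SD of log2 CPM was larger in CTL than in *Prdm1*-CKO mice for 31 of the 40 genes (77.5%), and for 74.3% of the 13398 genes tested that had no 0 count, so the list did as all genes did. The median SD over the 40 genes was 0.23 in CTL, 0.18 in CTL without replicate 2 and 0.17 in *Prdm1*-CKO mice, against 0.42, 0.28 and 0.24 over those 13398 genes. The highest of the 6 mice was CTL replicate 2 in 15 genes and CTL replicate 3 in 13, and the lowest was *Prdm1*-CKO replicate 2 in 11 and CTL replicate 3 in 8. CTL replicate 2 was highest for *Plcg1*, *Cblb*, *Malt1*, *Ppp3ca* and *Nfatc2*, and CTL replicate 3 was highest for *Lck*, *Zap70*, *Cd3e* and *Cd3d* and lowest for *Rel*, *Rasgrp1* and *Itpr1*. The summed macrophage markers were lowest in CTL replicate 2, at 2255 CPM, and the Tfh and CD4 T cell markers were highest in CTL replicate 3, at 4436 CPM. Their part in these differences was not tested. The T lineage genes had a median log2 fold change of -0.07, with 10 of 12 below 0, and the genes shared with other leukocytes one of -0.14, with 20 of 28 below 0.

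**Figure D4:**
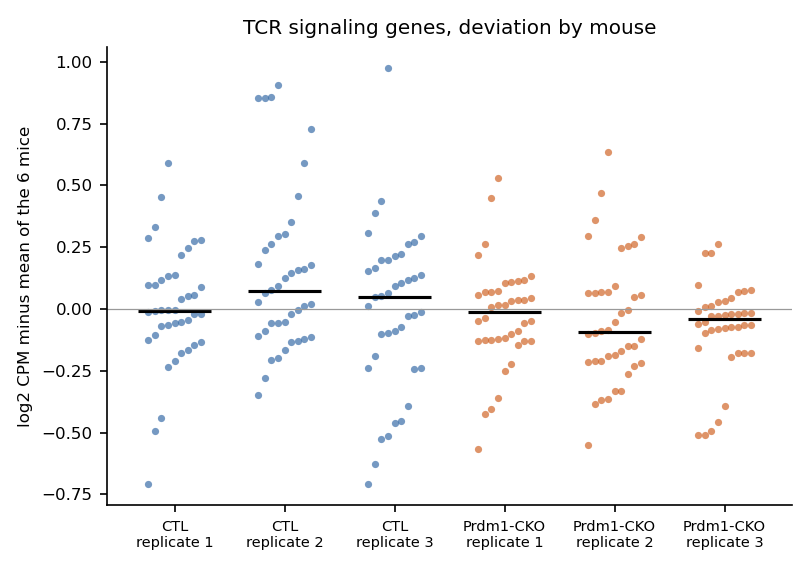
Deviation of each of the 40 genes from its mean over the 6 mice, in log2 CPM, by mouse; points are genes and the black line is the median of a mouse. The medians run from -0.09 in *Prdm1*-CKO replicate 2 to 0.07 in CTL replicate 2, and points over 0.7 are seen in CTL replicates 2 and 3 only.

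A further 79 genes of the TCR pathway were read in the same way. Among them were kinases, Ras and MAP kinase genes, calmodulins, NF-kB regulators and further adaptors and phosphatases. All 79 were tested, and in edgeR's test 0 rose and 0 fell at an adjusted p under 0.05. The counts by unadjusted p were 0 higher and 2 lower (2.53%, against 1.42% of all genes). DESeq2 and voom also gave 0 and 0 at an adjusted p under 0.05. The 79 genes had a median log2 fold change of -0.08, with values from -0.76 to 0.47. Of them, 47 (59.5%) lay below 0, against 75% of the 40 genes and 48.9% of all genes. The *Prdm1*-CKO mice all exceeded the CTL mice in 2 of them (2.53%, against 4.56% of all genes) and were all under the CTL mice in 5 (6.33%, against 3.86% of all genes). The 5 genes with the smallest p all had a negative log2 fold change. *Cd28*, the costimulatory receptor, was at 459, 510 and 447 CPM in CTL and 338, 398 and 363 CPM in *Prdm1*-CKO mice. Its log2 fold change was -0.36 (SE 0.13, unadjusted p = 0.0247, adjusted p = 0.996 from edgeR), and the groups did not overlap. Without CTL replicate 2 its unadjusted p was 0.0511 from edgeR. *Sla2*, an adaptor that lowers TCR levels at the surface, was at 81.3, 94.1 and 98.4 CPM against 68.5, 69.2 and 69.6 CPM (-0.40, SE 0.16, unadjusted p = 0.0325 from edgeR, and 0.0505 without CTL replicate 2). *Tab1*, a partner of the kinase TAK1, had a log2 fold change of -0.53 (SE 0.23), *Pdpk1*, the kinase PDK1, one of -0.39 (SE 0.18), and *Themis*, a T cell protein bound to Grb2, one of -0.54 (SE 0.26). *Themis* was at 353 CPM in CTL replicate 2 and between 154 and 195 CPM in the other 5 mice. Without that mouse the values were -0.40 for *Tab1*, -0.24 for *Pdpk1* and -0.18 for *Themis*.

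**Figure D5:**
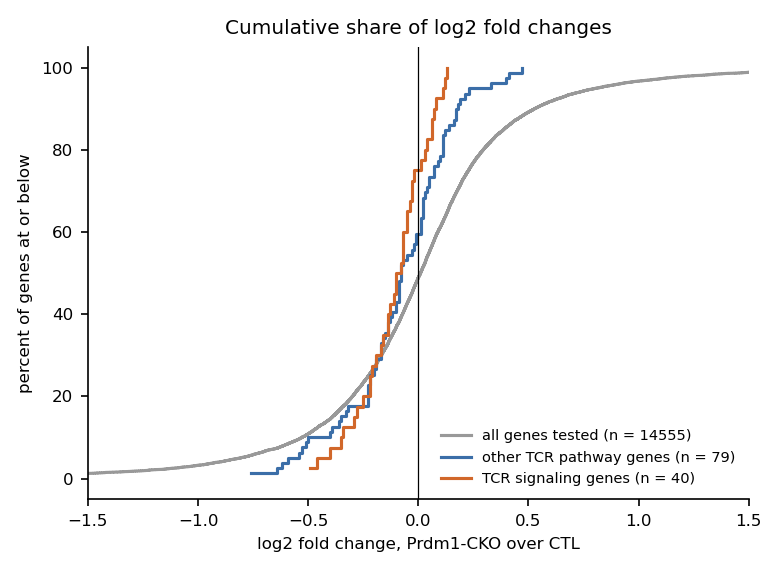
Cumulative share of log2 fold changes, *Prdm1*-CKO over CTL, for the 40 TCR signaling genes, 79 other TCR pathway genes and all 14555 genes tested. The curve of the 40 genes reaches 75% at 0 and runs from -0.49 to 0.13, where that of all genes is at 48.9% at 0.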

How the data were processed

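RNA of splenic Tfh cells from 3 CTL and 3 *Prdm1*-CKO mice was sequenced by the authors from Smart-seq2 libraries as paired reads of 25 bases, aligned to GRCm38 (STAR 2.4.2a in the submitters' processing notes) and assigned to genes by featureCounts. The files deposited hold unnormalized counts, each from 1 mouse and 1 library. Strandedness and the handling of reads with several alignments are not given in the sources used here. Titles call the second group a knockout and the genotype field a knockdown.

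Gene symbols, positions and exon lengths were taken from GENCODE M21 (GRCm38), and promoters from RefSeq (GRCm38.p6). Coordinates are given only for identifiers of the same version. Counts were scaled with TMM, filtered with filterByExpr and tested with edgeR 4.0.16 (R 4.3.3, quasi-likelihood F test, two-sided), with Benjamini-Hochberg adjustment over 14555 genes. SE is the log2 fold change divided by the square root of F. The 95% intervals used edgeR's degrees of freedom. An exact permutation test of 3 against 3 mice cannot go below p = 0.1. The floor of 3 counts was 0.169 to 0.444 CPM and covers counting error only.

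Named genes are all 40 of the list, the 5 with the smallest p of 79 other pathway genes, and marker lists by their sums. Single marker genes named beside them, and *Prdm1*, were chosen after their values were seen. Some of the pathway and marker genes outside the 40 are not reported here by name and stay in every fit and sum. The list and the other lists were chosen with earlier results of these data known. The edgeR, DESeq2 and voom code was run on simulated counts with changes much larger than those of the 40 genes. That run checks the code and not the power to find small differences. Alternatives were DESeq2 1.42.0 (size factors, Wald test), voom of limma 3.58.1 with sample quality weights, no filter, a minimum of 10 counts in each mouse, a replicate block, each mouse left out, and, chosen after seeing the data, another gene length.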

Additional observations from a re-analysis of the deposited data

How the results depend on the processing

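No alternative brought any of the 40 genes to an adjusted p under 0.05, and the median log2 fold change of the list stayed below 0 in each, between -0.12 and -0.06 with 1 mouse left out. *Cd4*, *Lat*, *Lcp2* and *Ptpn22* stayed below 0 throughout. The lower count of 1 among the 40 at an unadjusted p under 0.05, *Cd4*, fell to 0 with DESeq2's Wald test, with voom, without a filter, with at least 10 counts in every mouse and with the replicate number as a block, and ran from 0 to 3 with 1 mouse left out. Genes of the list whose groups did not overlap then numbered 0 to 3 higher and 5 to 10 lower, of which 3 and 10 came without CTL replicate 3, where 13% of all genes tested were higher and 11.9% lower by that measure. Over all genes, DESeq2 called 7 up and 2 down after adjustment, and 264 and 417 at an unadjusted p under 0.05. No filter gave 1 higher at an adjusted p and 426 and 510 at an unadjusted p, and voom 268 higher. With 1 mouse left out, 58 to 580 were higher and 107 to 617 lower, and 1117 to 2082 and 953 to 1859 did not overlap. By the unadjusted p threshold of 0.05, voom gave 1 higher and 4 lower of the 79 other genes, where all genes gave 268 and 203. The replicate block gave 2 and 3, where all genes gave 175 and 196. Leaving out 1 mouse gave 0 to 1 and 0 to 6, and a median from -0.10 to -0.02. Groups then did not overlap in 2 to 8 (higher) and 6 to 18 (lower). The 6 lower by p and the 18 lower without overlap came without CTL replicate 3, against 3.94% and 11.9% of all genes tested. The higher counts without that mouse were 0 and 3, against 2.14% and 13% of all genes tested. The step medians with 1 mouse left out were TCR complex from -0.11 to 0.04, coreceptors from -0.19 to 0.02, proximal kinases from -0.15 to -0.02, adaptor assembly from -0.14 to -0.08, brakes from -0.26 to -0.13, Ras and ERK from -0.35 to -0.08, PKC-theta and NF-kB from -0.06 to 0.06, calcium and NFAT from -0.37 to 0.05. Under voom they moved to -0.25 for Ras and ERK, 0.09 for PKC-theta and NF-kB and -0.09 for calcium and NFAT. Voom turned the sign of *Grap2* (0.04), *Plcg1* (0.02), *Nck1* (-0.07), *Mapk3* (-0.06), *Malt1* (0.12) and *Itpr1* (-0.07). Leaving out 1 mouse turned the sign of 26 genes with ranges of log2 fold change as follows: *Bcl10* from -0.02 to 0.32, *Cd3d* from -0.10 to 0.03, *Cd3e* from -0.22 to 0.05, *Cd3g* from -0.01 to 0.13, *Cd5* from -0.04 to 0.09, *Cd6* from -0.19 to 0.02, *Dgkz* from -0.37 to 0.10, *Grap2* from -0.12 to 0.09, *Grb2* from -0.38 to 0.07, *Itpr1* from -0.15 to 0.19, *Lck* from -0.14 to 0.06, *Malt1* from -0.52 to 0.33, *Mapk3* from -0.05 to 0.17, *Nck1* from -0.10 to 0.18, *Nfatc1* from -0.13 to 0.25, *Nfatc2* from -0.59 to 0.09, *Nfkb1* from -0.17 to 0.05, *Orai1* from -0.83 to 0.17, *Plcg1* from -0.33 to 0.11, *Ppp3ca* from -0.65 to 0.06, *Ppp3cb* from -0.34 to 0.04, *Prkcq* from -0.17 to 0.04, *Rel* from -0.15 to 0.23, *Stim1* from -0.15 to 0.12, *Was* from -0.26 to 0.15, *Zap70* from -0.19 to 0.02. Of genes that kept their sign, *Cd247* ran from -0.11 to -0.01 and *Rela* from 0.04 to 0.20. The median level of the 40 genes in CTL was 34.8 CPM per kb of summed exons and 53.9 CPM per kb of the longest coding transcript. The causes of these shifts were not tested.

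The labels number the replicates 1 to 3 in both groups. Residuals of same-numbered mice correlated at 0.158, 0.0282 and 0.016, so the numbers were not taken to pair the mice. With the replicate block, 0 of the 40 genes had an unadjusted p under 0.05, and *Cd4* had 0.0603 from edgeR.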

Other observations

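The other marker lists were read for each mouse. B cell markers summed to 109 to 181 CPM in CTL and 154 to 242 CPM in *Prdm1*-CKO mice, with a median log2 fold change of 0.83 and 10 of 10 above 0, and *Pax5*, *Ebf1* and *Fcer2a* at 0 in some mice. Plasma cell markers summed to 3015 to 5295 CPM against 4634 to 6678 CPM, with a median log2 fold change of 0.48 and 8 of 8 above 0, and *Sdc1* and *Tnfrsf17* at 0 in some mice. Dendritic cell markers summed to 60.1 to 119 CPM against 91.0 to 130 CPM, with *Siglech* at 0 in some mice. Regulatory T cell markers summed to 725 to 826 CPM in CTL and 647 to 716 CPM in *Prdm1*-CKO mice, so that the sums did not overlap. Each of the 5 genes taken alone overlapped between the groups. *Foxp3* was at 173 ± 2.77 CPM in CTL against 157 ± 23.8 CPM in *Prdm1*-CKO mice (SD, n = 3 each). *Ikzf2* was at 304 ± 29.9 CPM against 255 ± 41.1 CPM, and *Ctla4* at 194 ± 6.76 CPM against 189 ± 9.75 CPM. Erythroid markers summed to 6.40 to 17.6 CPM against 11.7 to 46.9 CPM, with a median log2 fold change of 1.52 and 4 of the 4 tested above 0, and neutrophil markers to 53.5 to 120 CPM against 71.2 to 109 CPM, with *Hba-a2*, *Alas2*, *Ly6g*, *Mpo* and *Elane* among the markers at 0 in some mice. In edgeR's test none of the genes of the 9 marker lists passed an adjusted p under 0.05. At an unadjusted p under 0.05, 1 plasma cell gene, 3 erythroid genes and 1 macrophage gene, *C1qc*, were higher. The genes lower were 2 CD8 T and NK cell genes and 1 Tfh and CD4 T cell gene, *Cd28*, and 0 B cell, dendritic cell, regulatory T cell and neutrophil genes were higher or lower. The part of these cells in the levels of the TCR signaling genes was not tested.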
